A study of Mus musculus with 43 samples.

Results

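Runx1 was overexpressed in mouse brown preadipocytes, which were then taken through brown adipocyte differentiation before their polyadenylated RNA was sequenced. The libraries labelled OE Runx1 were compared with those labelled OEV, whose genotype is given as WT and whose columns are headed Control in the count table. Each group held 3 libraries, so the comparison rests on 6 of the 43 samples of the series, all of those that carry these 2 labels. Both groups are labelled with the cell line BAT, the cell type mature brown adipocytes and the same differentiation. The vector, its promoter, the strain, the age of the cells and whether the line is a clone are not given in the sources used here. The series as a whole asks what RUNX1 and RUNX2 do in fat cells, by overexpression and knockout in culture and by knockout in adipose tissue. An OE Runx2 group of 3 libraries from the same table, and 3 Runx1 knockout and 3 knockout control libraries from another, are used below only for comparison.

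RUNX1 is a DNA-binding transcription factor that pairs with CBFB and recognises a short core motif, TGTGGT, or ACCACA on the other strand. It is best known for establishing the blood lineages, and its relative RUNX2 for driving osteoblast and cartilage maturation. Brown adipocytes burn fatty acids and glucose to make heat, through UCP1 in a dense mitochondrial network, under the control of factors such as PRDM16, EBF2 and PPARG. Adrenergic signals raise cyclic AMP in these cells and release fatty acids from their lipid droplets.

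Levels are CPM, counts scaled to the size of each library with TMM factors, and fold changes are on the log2 scale from edgeR's quasi-likelihood test with its standard error (SE). A gene is said to rise or fall only where its Benjamini-Hochberg adjusted p, over all 14661 tested genes, was under 0.05. Of these genes 7912 passed, or 54.0%, with 28.2% higher and 25.8% lower in OE Runx1, and the median log2 fold change was 0.06. A gene list therefore says something about its members only where its counts depart from those shares. At least 2-fold, 13.1% of the genes rose and 7.92% fell, and at least 4-fold, 6.90% rose and 2.09% fell. In 59.7% of the genes the libraries of one group lay all above those of the other, higher in OE Runx1 in 30.7% and lower in 28.9%. The libraries held 32401897 to 43400221 counts, and p-values measure the spread between libraries, which the labels do not tie to separate cultures.

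Runx1 itself was at 5.73, 4.26 and 6.70 CPM in OEV and 66.9, 68.8 and 85.9 CPM in OE Runx1, and the groups did not overlap (log2 fold change 3.72, SE 0.17, edgeR adjusted p = 4.1e-08). Counts per gene cannot tell a transgene from the endogenous gene. Runx2 rose from 7.74, 9.30 and 9.28 to 17.1, 15.3 and 17.96 CPM (log2 0.94, SE 0.11), and Runx3 stood at 5.54, 8.39 and 5.95 against 10.8, 9.11 and 9.36 CPM. Cbfb, the shared partner subunit, was at 102, 91.2 and 117 CPM in OEV and 142, 133 and 146 CPM in OE Runx1 (log2 fold change 0.44, SE 0.11, edgeR adjusted p = 0.0055). Among 20 tested RUNX genes, partners and cofactors, 7 rose and 7 fell. The partner factor Ets1 rose by log2 1.14 (SE 0.13), while the corepressors Tle1 and Ncor1 fell by 0.89 (SE 0.10) and 1.25 (SE 0.17) on the log2 scale. Cbfb did not pass without the 3 libraries described next (log2 0.23), and Runx3, which passed with all libraries (log2 0.56, SE 0.18), did not without OEV replicate 1 (log2 0.45), OEV replicate 3 (log2 0.47) or OE Runx1 replicate 1 (log2 0.46).

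OEV replicates 1 and 2 and OE Runx1 replicate 3 carried transcripts of heart muscle that the other libraries nearly lacked. Summed over 14 cardiac markers, the levels were 136, 521 and 2.68 CPM in OEV and 5.14, 5.85 and 1963 CPM in OE Runx1. Myh6, a myosin heavy chain of heart muscle, was at 38.7, 167 and 0 CPM in OEV and 0, 0 and 611 CPM in OE Runx1. The same OE Runx1 library had the highest sum of neural and Schwann markers, 104 CPM against 20.9 and 23.4 in its group, of endothelial markers, 35.7 CPM against 11.1 and 11.9 (13.8 to 22.4 CPM in OEV), and of macrophage markers, 19.01 CPM. Without these 3 libraries, which leaves 1 control and assumes that it varies like the others, 6371 of the 7912 genes still passed in the same direction and 0 passed in the opposite one. Myoglobin (Mb), the oxygen store of muscle and brown fat, depended on these libraries. It stood at 660.1, 958 and 435 CPM in OEV and 10.6, 10.3 and 409.8 CPM in OE Runx1 and did not pass (log2 fold change -2.25, SE 1.47, edgeR adjusted p = 0.24), but it passed without OE Runx1 replicate 3 (log2 -6.04) and without all 3 (log2 -5.38). The genes given below with a call and a fold change kept both, within 1.5-fold, with each library left out in turn and with all 3 left out, unless a sentence says otherwise.

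**Figure D1:**
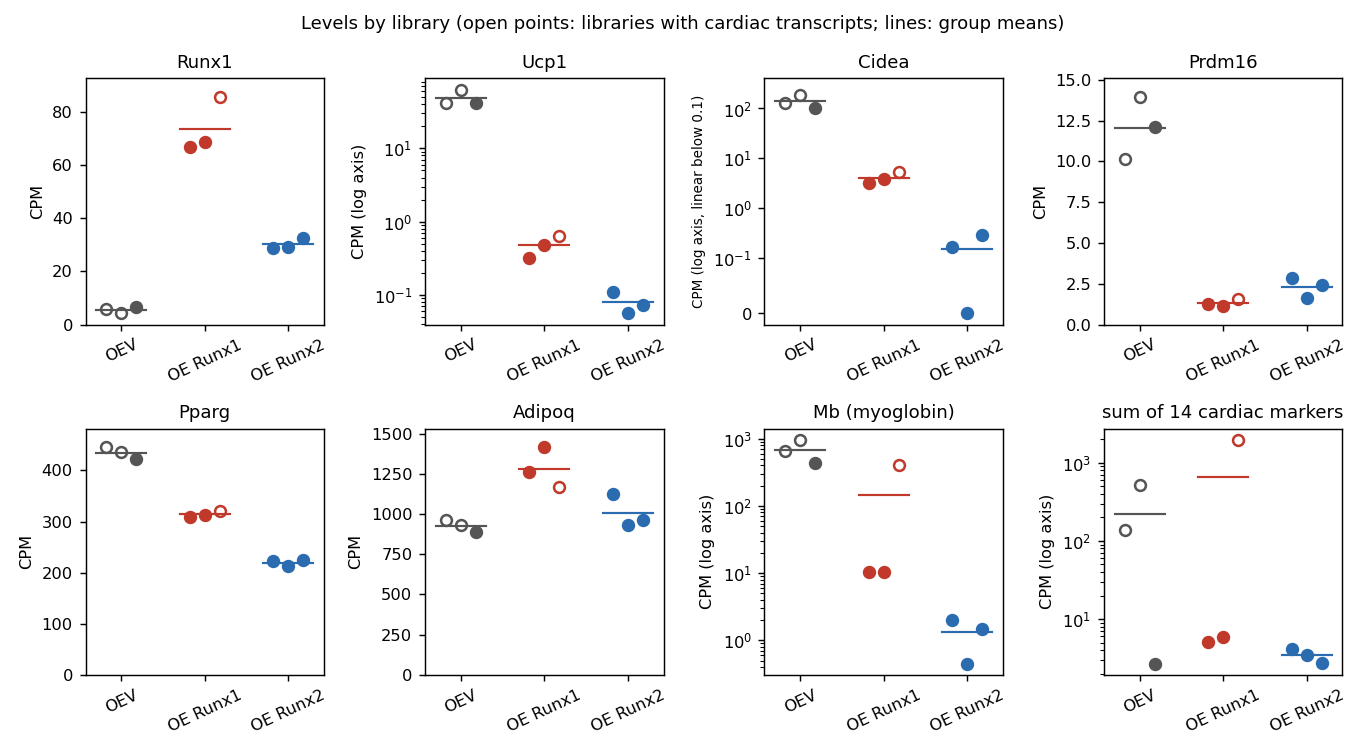
Levels in CPM of 7 genes and of the sum of 14 cardiac muscle markers in each library (points) of OEV, OE Runx1 and OE Runx2, with group means as lines and open points for the 3 libraries that carry cardiac transcripts; the axes of Ucp1, Cidea, Mb and the sum are logarithmic. Runx1 is highest in OE Runx1, Ucp1 and Cidea fall far below OEV in every OE Runx1 library, and Adipoq and Pparg move far less.

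The adipocyte markers check the label of the cells. All 8 were present in every library, with a summed level of 9047 to 9613 CPM in OEV and 7921 to 9855 CPM in OE Runx1, ranges that overlap. Adiponectin (Adipoq), the main adipocyte hormone, was at 963, 934 and 886 CPM in OEV and 1261, 1417 and 1169.6 CPM in OE Runx1, which is higher with Runx1 (log2 fold change 0.47, SE 0.10, edgeR adjusted p = 0.0026). Pparg, the factor that commits cells to fat, was at 446, 436 and 422 CPM in OEV and 309, 314 and 321 CPM in OE Runx1 (log2 fold change -0.47, SE 0.07, edgeR adjusted p = 2.8e-04). Of 11 lymphocyte and NK cell markers, 1 to 3 had counts in an OEV library and 1 to 5 in an OE Runx1 library. They summed to 0.132 to 0.403 CPM and 0.0506 to 0.722 CPM, with Cd8a, Ms4a1, Ncr1, Klrb1c and Klrd1 at 0 in all 6 libraries.

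The genes that make a fat cell brown fell. Ucp1, the mitochondrial uncoupling protein, was at 42.0, 63.2 and 41.2 CPM in OEV and 0.321, 0.481 and 0.642 CPM in OE Runx1 (log2 fold change -6.67, SE 0.26, edgeR adjusted p = 1.8e-08). Cidea, which enlarges the lipid droplets of brown fat, was at 131, 185 and 102 CPM in OEV and 3.17, 3.77 and 5.24 CPM in OE Runx1 (log2 fold change -5.10, SE 0.35, edgeR adjusted p = 2.1e-06). In both, every OE Runx1 library was far under the lowest control. Of 13 tested brown fat effectors, 9 fell and 0 rose, with a median log2 fold change of -0.98 beside 0.06 over all tested genes. Kcnk3, a potassium channel that sets the membrane potential of brown adipocytes, fell from 386, 457 and 323 to 69.7, 76.7 and 87.5 CPM (log2 fold change -2.32, SE 0.13, edgeR adjusted p = 1.5e-07). Elovl3, a fatty acid elongase induced by cold, fell by 0.98 on the log2 scale (SE 0.17).

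Transcriptional regulators of brown fat also fell: of 22 tested brown fat regulators 14 fell and 3 rose (median log2 -0.48). Prdm16, the coregulator of brown identity, was at 10.1, 13.96 and 12.1 CPM in OEV and 1.28, 1.16 and 1.55 CPM in OE Runx1 (log2 fold change -3.18, SE 0.25, edgeR adjusted p = 1.5e-06). Ppara, a receptor for fatty acids that drives their oxidation, was at 123, 161 and 110.5 CPM in OEV and 14.2, 14.1 and 21.6 CPM in OE Runx1 (log2 fold change -2.99, SE 0.20, edgeR adjusted p = 4.7e-07). Ebf2, which marks brown preadipocytes, was at 259, 247 and 248 CPM in OEV and 47.9, 51.5 and 62.7 CPM in OE Runx1 (log2 fold change -2.22, SE 0.12, edgeR adjusted p = 1.0e-07). These 3 groups of values did not overlap. The coactivators Ppargc1b and Ppargc1a fell by 1.65 (SE 0.17) and 1.28 (SE 0.25) on the log2 scale. Tbx15 and Foxc2, members of the same list, went the other way and rose, by log2 1.26 (SE 0.11) and 1.44 (SE 0.19). Among 22 general adipogenic factors 12 fell and 5 rose. Klf9 fell by 1.87 on the log2 scale (SE 0.14), and Gata2, a zinc-finger factor of preadipocytes, rose from 1.42, 0.940 and 2.23 to 12.4, 10.8 and 8.29 CPM.

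Most genes of adrenergic control and lipolysis fell. Of 22 tested members 16 fell, and 1, Mgll, the lipase that cleaves monoglycerides, rose (median log2 -0.99). Without OEV replicate 2 or OE Runx1 replicate 3 the number that rose was 2. The beta-adrenergic receptor Adrb1 fell by 1.25 (SE 0.17) on the log2 scale. Adrb3, a beta-adrenergic receptor abundant in mouse adipocytes, was at 41.5, 56.7 and 37.3 CPM in OEV and 45.4, 47.1 and 45.2 CPM in OE Runx1 and did not pass (log2 fold change 0.02, SE 0.14, edgeR adjusted p = 0.9). Adora1, the receptor through which adenosine restrains lipolysis, was at 81.2, 114 and 74.6 CPM in OEV and 13.9, 13.1 and 17.6 CPM in OE Runx1 (log2 fold change -2.60, SE 0.18, edgeR adjusted p = 5.1e-07). Hcar1, the lactate receptor with the same effect, fell by 1.68 on the log2 scale (SE 0.12). The cyclic AMP phosphodiesterases fell as well. Pde3b, the one that insulin activates in fat cells, was at 833, 865 and 736 CPM in OEV and 159, 158 and 225 CPM in OE Runx1 (log2 fold change -2.17, SE 0.16, edgeR adjusted p = 9.7e-07), and Pde4d fell from 97.8, 116 and 87.0 to 11.9, 11.1 and 14.998 CPM (log2 -2.99, SE 0.14). Adcy3, which makes cyclic AMP, fell by 1.68 on the log2 scale (SE 0.10), and Pnpla2, the first lipase of triglyceride breakdown, by 0.74 (SE 0.14). Members that raise and members that lower cyclic AMP were both among those that fell.

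Fat synthesis did not move one way: of 23 tested members 5 rose, or 3 without OEV replicate 2, and 9 fell. Fasn, which builds palmitate, was at 2503, 1392 and 2312 CPM in OEV and 3573, 3751 and 4954 CPM in OE Runx1 (log2 fold change 0.98, SE 0.19, edgeR adjusted p = 0.0013). Acacb, whose product restrains fatty acid entry into mitochondria, was at 487, 471 and 392.2 CPM in OEV and 36.0, 33.2 and 51.1 CPM in OE Runx1 (log2 fold change -3.49, SE 0.17, edgeR adjusted p = 5.5e-08). Elovl6, which lengthens palmitate, rose by log2 1.39 (SE 0.15), and Lpin1, which makes diacylglycerol, fell by 1.68 (SE 0.13). Scd1, a fatty acid desaturase, lost the most CPM of the genes that passed, with predicted and unnamed genes left out. It was at 33147, 28102 and 36943 CPM in OEV and 16898, 18746 and 23404 CPM in OE Runx1 (log2 -0.73, SE 0.14). In sterol synthesis 10 of 20 members rose and 2 fell, the latter 1 to 4 with libraries left out. Insig1, the brake on the pathway, fell by 1.07 on the log2 scale (SE 0.09). Among adipokines, Rbp4, the retinol carrier, was at 141, 149 and 132 CPM in OEV and 13.8, 13.7 and 11.3 CPM in OE Runx1 (log2 fold change -3.44, SE 0.11, edgeR adjusted p = 4.7e-09), Nampt fell by 1.58 on the log2 scale (SE 0.11) and resistin (Retn) rose by log2 1.11 (SE 0.14).

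Glycolysis and the genes that hypoxia induces had the largest share of fallen members among the 45 gene lists examined. Of 30 tested members 26 fell, 24 of them at least 2-fold, and 2 rose, with a median log2 fold change of -1.49. Without the 3 libraries with cardiac transcripts the counts were 2 higher and 27 lower and the median -1.65. The members that rose were Pfkfb4 (log2 1.26, SE 0.15) and Pfkfb3 (log2 0.46, SE 0.14), which did not pass without OEV replicate 2 (log2 0.32). Both make and remove a sugar phosphate that activates glycolysis. Of the glucose transporters, Slc2a1 fell by 1.72 (SE 0.14) and the insulin-responsive Slc2a4 fell by 0.90 (SE 0.09) on the log2 scale. Gpi1, the second enzyme of the pathway, was at 3135, 3735 and 3116 CPM in OEV and 521, 507 and 499 CPM in OE Runx1 (log2 fold change -2.71, SE 0.12, edgeR adjusted p = 2.9e-08). Pgk1, which makes the first ATP, was at 3968, 3902 and 3945 CPM in OEV and 1247, 1129 and 1095 CPM in OE Runx1 (log2 fold change -1.77, SE 0.11, edgeR adjusted p = 2.2e-07). Gapdh, often taken as a reference gene, was at 6843, 7316 and 7118 CPM in OEV and 2921, 2821 and 2695 CPM in OE Runx1 (log2 fold change -1.33, SE 0.10, edgeR adjusted p = 9.1e-07). In each of these all 3 OE Runx1 libraries were below all 3 controls.

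Lactate export and the switch that diverts pyruvate from mitochondria fell too. Bsg, the chaperone that carries lactate transporters to the membrane, was at 11970.4, 11978 and 10719 CPM in OEV and 1818, 1755 and 1410.3 CPM in OE Runx1 (log2 fold change -2.80, SE 0.14, edgeR adjusted p = 5.5e-08). Pdk1, the kinase that shuts pyruvate dehydrogenase, was at 727, 720.0 and 714 CPM in OEV and 82.5, 78.5 and 105 CPM in OE Runx1 (log2 fold change -3.02, SE 0.15, edgeR adjusted p = 5.5e-08). Egln3, an oxygen sensor that HIF induces, was at 541, 559.6 and 549.5 CPM in OEV and 37.6, 42.5 and 50.8 CPM in OE Runx1 (log2 fold change -3.66, SE 0.20, edgeR adjusted p = 1.3e-07). None of the 3 overlapped between the groups. Bnip3, a mitophagy receptor, was at 1715, 1451 and 1543 CPM in OEV and 183, 187 and 210.1 CPM in OE Runx1 (log2 fold change -3.02, SE 0.15, edgeR adjusted p = 5.0e-08). Ero1a, an oxidase of the endoplasmic reticulum, fell by 3.50 (SE 0.20), Ndrg1 fell by 2.44 (SE 0.11) and P4ha1, a collagen prolyl hydroxylase, fell by 2.19 (SE 0.10) on the log2 scale. Vegfa, the angiogenic factor that hypoxia raises, was at 746, 861 and 808 CPM in OEV and 203, 209 and 232 CPM in OE Runx1 (log2 fold change -1.91, SE 0.10, edgeR adjusted p = 7.3e-08).

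**Figure D2:**
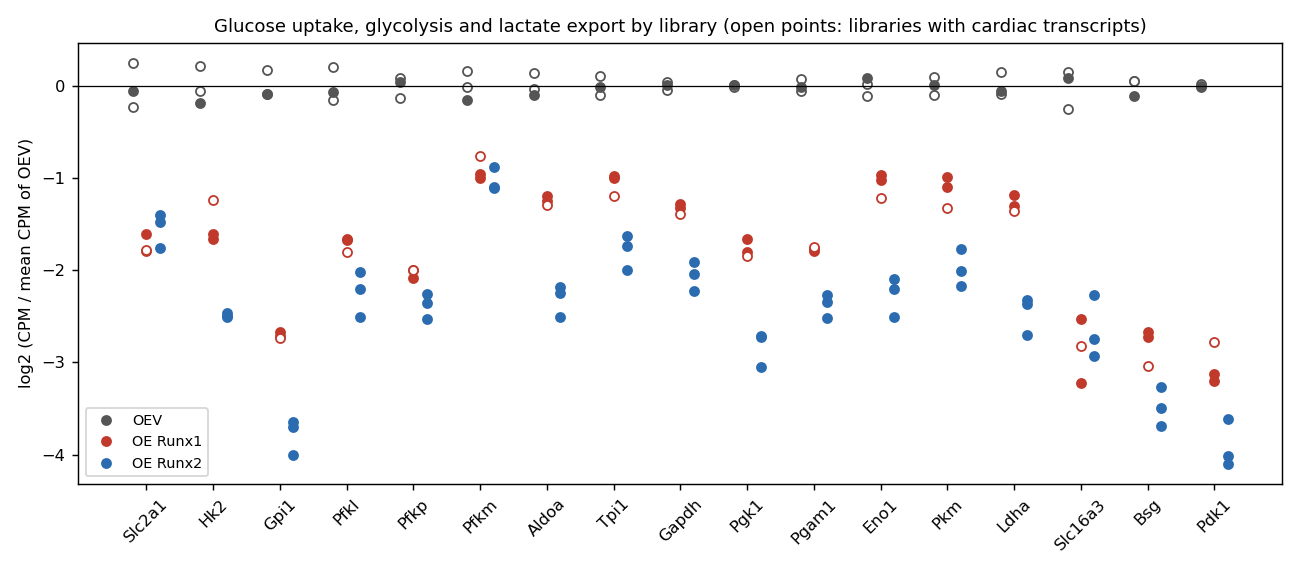
Level of 17 genes of glucose uptake, glycolysis and lactate export in each library (points), as log2 of its CPM over the OEV mean, with open points for the libraries that carry cardiac transcripts. All OE Runx1 points lie below all OEV points in each gene, and in most genes the OE Runx2 points lie lower still.

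HIF binds the core ACGTG, or CACGT on the other strand. To show where these letters stand in members of the group, the stretch around them is given for 2 that fell, from RefSeq promoters of GRCm38.p6 of 300 bases around the start. Capitals mark the core, and all stretches are upstream of the start.
Pgk1, chrX:106186935-106186998, plus strand: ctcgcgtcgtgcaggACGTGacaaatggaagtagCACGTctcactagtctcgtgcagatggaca
Slc16a3, chr11:120949025-120949066, plus strand: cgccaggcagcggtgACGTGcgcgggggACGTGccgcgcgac
Of all 32851 promoters 19.6% hold the core on either strand. Counted per gene, the share was 28.4% among tested genes matched by symbol. It was 26.3% of those that fell and 17.5% of those that rose at least 4-fold. The letters thus did not set the genes that fell at least 4-fold apart from all tested genes. The share within this gene list is not given. Slc16a3, which exports lactate, stood at 5.37, 7.08 and 6.78 against 0.688, 1.11 and 0.909 CPM (log2 -2.82, SE 0.30). Of the other hypoxia genes searched, Bnip3, Egln3, Ero1a, P4ha1, Egln1, Car9 and Ankrd37 hold the core in this window. Ldha and Vegfa hold it at some of their starts but not at all of them. Pdk1, Gpi1 and Adm, which also fell, have no such core there.

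Genes of mitochondrial fuel use fell in most members of the lists. Of 22 tested genes of fatty acid oxidation 18 fell and 2 rose, or 1 without OEV replicate 1 or 3 or without OE Runx1 replicate 1 or 2 (median log2 -0.57). Hadha and Hadhb, the subunits of the trifunctional enzyme, fell by 1.05 (SE 0.09) and 1.30 (SE 0.10) on the log2 scale. Cpt1a, the liver-type gate for fatty acid entry, rose by log2 0.61 (SE 0.09). Of 23 genes of branched-chain amino acid breakdown 19 fell and 1 rose. Bckdha, of the committed step, was at 322, 393 and 292 CPM in OEV and 148, 153 and 133 CPM in OE Runx1 (log2 fold change -1.21, SE 0.13, edgeR adjusted p = 1.2e-05), and Pcca, which handles the propionate that follows, fell by 1.71 (SE 0.13) on the log2 scale. The exception was Bcat1, the cytosolic transaminase of many growing cells, which rose from 3.29, 5.57 and 7.90 to 19.04, 18.6 and 17.1 CPM (log2 1.70, SE 0.23).

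Other mitochondrial lists had fewer. Of 30 carriers 17 fell and 4 rose. Slc25a34, a carrier of mostly unknown substrate, was at 86.1, 121 and 72.5 CPM in OEV and 4.20, 4.15 and 8.72 CPM in OE Runx1 (log2 fold change -4.04, SE 0.34, edgeR adjusted p = 5.9e-06), and Slc25a42, which brings in coenzyme A, fell by 1.41 (SE 0.13) on the log2 scale. Slc25a25, a calcium-regulated ATP carrier, rose by log2 1.26 (SE 0.10). Of 20 genes of mitochondrial DNA upkeep and shape 15 fell, among them Sirt3, a deacetylase (log2 -1.93, SE 0.16), and the fusion protein Opa1 (log2 -0.67, SE 0.11). Peroxisomes had 14 of 24 genes lower and 1 higher, the fatty acid importer Abcd2 (log2 2.38, SE 0.22).

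Interferon-stimulated genes rose as a group. Of 47 tested members 41 rose, 36 of them at least 2-fold, and 0 fell (median log2 2.01). Without the 3 libraries with cardiac transcripts the counts were 39 higher and 0 lower and the median 2.56. Ifit1, which binds foreign RNA ends, was at 5.14, 4.36 and 6.75 CPM in OEV and 112, 97.2 and 90.8 CPM in OE Runx1 (log2 fold change 4.19, SE 0.16, edgeR adjusted p = 1.2e-08). Isg15, a ubiquitin-like protein, was at 4.61, 4.16 and 5.20 CPM in OEV and 61.5, 52.5 and 39.8 CPM in OE Runx1 (log2 fold change 3.45, SE 0.21, edgeR adjusted p = 2.0e-07). Usp18, which removes it, was at 1.38, 1.48 and 1.30 CPM in OEV and 27.8, 22.7 and 17.9 CPM in OE Runx1 (log2 fold change 4.04, SE 0.19, edgeR adjusted p = 4.1e-08). The groups did not overlap in any of the 3. Rtp4, a receptor chaperone, was at 4.68, 5.44 and 6.48 CPM in OEV and 73.0, 65.4 and 63.5 CPM in OE Runx1 (log2 fold change 3.60, SE 0.13, edgeR adjusted p = 9.9e-09).

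The signalling chain above these genes rose in part. Of 30 genes of interferon signalling and nucleic acid sensing 17 rose and 4 fell. Irf9 and Stat2, parts of the factor that type I interferon activates, rose by log2 1.77 (SE 0.11) and 1.43 (SE 0.11). Irf7, which amplifies the response, was at 6.06, 6.65 and 6.55 CPM in OEV and 37.4, 28.7 and 22.6 CPM in OE Runx1 (log2 fold change 2.20, SE 0.18, edgeR adjusted p = 2.4e-06). The sensors Ifih1 and Ddx58 rose by log2 1.21 (SE 0.16) and 1.51 (SE 0.16), and Sting1, the adaptor for cytosolic DNA, by 2.19 (SE 0.19). Receptors differed: Ifngr1 fell by 0.63 (SE 0.09) on the log2 scale, Ifngr2 rose by log2 0.47 (SE 0.10), and Ifnar2 stood at 34.7, 28.1 and 33.7 against 38.9, 37.2 and 33.3 CPM and did not pass.

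**Figure D3:**
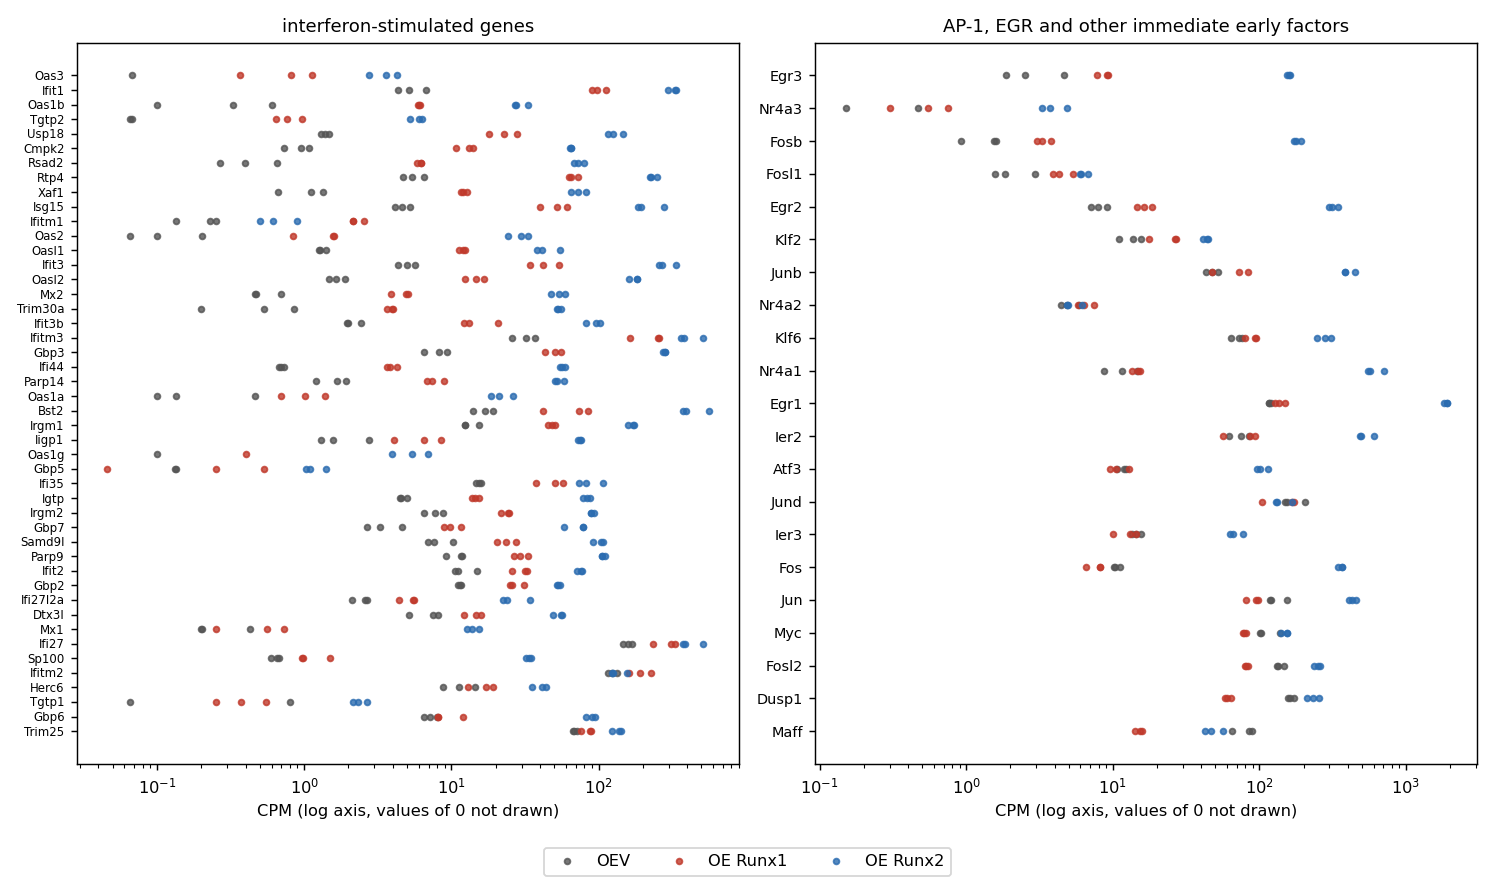
Level in CPM, on a log axis, of interferon-stimulated genes (left) and of AP-1, EGR and other immediate early factors (right) in each library of OEV, OE Runx1 and OE Runx2, sorted by the OE Runx1 fold change; values of 0 are not drawn. On the left OE Runx1 lies between OEV and OE Runx2 in most genes, and on the right OE Runx1 lies above OEV in some genes and below it in others, while OE Runx2 lies to the right of OE Runx1 in most.

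The interferon response element holds 2 half-sites GAAA with any 2 bases between them, read as TTTC on the other strand, and is shown for 2 of the genes above, with the element in capitals. In Isg15 the 3 matches overlap one another.
Ifit1, chr19:34640770-34640838, plus strand: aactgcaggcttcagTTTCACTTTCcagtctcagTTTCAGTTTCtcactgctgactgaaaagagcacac
Isg15, chr4:156200850-156200911, minus strand: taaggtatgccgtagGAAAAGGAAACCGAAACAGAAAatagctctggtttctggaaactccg
Of all 32851 promoters 3.44% hold these letters on either strand. Counted per gene, the share was 3.69% among tested genes matched by symbol. It was 7.95% of the 755 matched genes that rose and 2.16% of the 232 that fell at least 4-fold. No test was run on these shares. Of the other interferon genes searched, Ifit3, Rsad2, Cxcl10, Oas3, Stat2 and Bst2 hold a match in this window, and Irf7, Irf9, Ifit2, Ifi44, Xaf1 and Cmpk2 hold none.

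Chemokines, which draw in leukocytes, were listed with their receptors, and most tested members of this list also rose. Of 19 tested members 13 rose and 0 fell (median log2 3.40, or 3.06 with the gene at 0 counts in the controls set to its bound). The largest fold change in the list was that of a receptor, Ackr4 (log2 5.72). Its size moved with the libraries used and was log2 8.59 without the 3 libraries with cardiac transcripts. Ccl2, which recruits monocytes, was at 0.988, 0.973 and 1.58 CPM in OEV and 18.4, 19.8 and 12.3 CPM in OE Runx1 (log2 fold change 3.81, SE 0.24, edgeR adjusted p = 2.6e-07). Cxcl10, which interferon induces, was at 0.791, 1.75 and 1.60 CPM in OEV and 15.3, 16.4 and 12.3 CPM in OE Runx1 (log2 fold change 3.40, SE 0.23, edgeR adjusted p = 5.3e-07). Ccl5 was at 0.132, 0.671 and 0.550 CPM in OEV and 7.53, 6.63 and 5.24 CPM in OE Runx1 (log2 fold change 3.82, SE 0.35, edgeR adjusted p = 4.3e-06). Most members were scarce in the controls, and 18 of 37 were too scarce to test. Cytokines and their receptors had 23 of 37 members higher and 5 lower, the latter 3 without OEV replicate 3 or without OE Runx1 replicate 1 or 2. Csf1, the macrophage growth factor, rose from 40.2, 36.2 and 60.4 to 204, 185 and 164 CPM (log2 2.01, SE 0.17), the feedback inhibitor Socs3 rose by log2 1.61 (SE 0.12), and Il6st, the receptor subunit shared by the IL-6 family, fell by 0.82 (SE 0.12) on the log2 scale. Macrophage markers were higher in sum, at 5.30 to 8.73 CPM in OEV and 11.47, 9.14 and 19.01 CPM in OE Runx1. The highest sum was in the OE Runx1 library with cardiac transcripts. Of 4 tested markers 2 rose and 0 fell. C1qb, too scarce to test, was at 0.132, 0.336 and 0.250 CPM in OEV and 0, 0 and 1.71 CPM in OE Runx1. Between 5 and 11 of the 11 markers were present in a library, all 11 only in OE Runx1 replicate 3, and Adgre1 was at 0 in 5 of the 6. Their part in the result was not tested.

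A block of granzymes, serine proteases that cytotoxic lymphocytes store in granules, had no or almost no reads in OEV and many in OE Runx1. Gzmc had 0, 0 and 0 counts in OEV and 776, 974 and 497 in OE Runx1, which is at least 620-fold higher when the OEV group is credited with 3 counts. Gzmb had 213, 256 and 200 counts and Gzmd 227, 266 and 141, both against 0 in all 3 controls, so they were at least 186-fold and 175-fold higher. Low counts were mostly even numbers in every library, so 3 counts may stand for fewer fragments, and these bounds would then be lower. Gzme had 228, 217 and 152 counts against 0, 2 and 0, and Gzmg 28, 20 and 24 against 0. Gzmm, a granzyme at another locus, went the other way, with 99, 124 and 128 counts in OEV and 58, 57 and 58 in OE Runx1 (log2 fold change -1.29, SE 0.26, edgeR adjusted p = 0.0015). Perforin (Prf1), which lets granzymes into target cells, had at most 4 counts in a library, and Gzma and Gzmk had 0. The lymphocyte and NK cell markers given above were at or near 0 in the same libraries. Mast cells can also store granzymes. Of 8 mast cell and basophil markers 2 had counts in each OEV library and 3 to 5 in each OE Runx1 library, with sums of 0.235 to 0.425 CPM and 2.15 to 3.14 CPM. Tpsab1, Fcer1a and Ms4a2 were at 0 in all 6 libraries, and the part of such cells in the result was not tested. Gzmc, Gzmd, Gzme and Gzmg are close paralogs, and the counting may have split reads among them, so the share of each is uncertain.

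The 7 genes Gzmb, Gzmc, Gzmd, Gzme, Gzmf, Gzmg and Gzmn lie close together on chromosome 14, and promoters of 6 of them are shown because RUNX motifs recur there at like positions in the silent and the active copies. Capitals mark the core TGTGGT or, on the other strand, ACCACA, all on the minus strand of GRCm38.p6 and upstream of the start, per RefSeq.
Gzmc, chr14:56234735-56234846: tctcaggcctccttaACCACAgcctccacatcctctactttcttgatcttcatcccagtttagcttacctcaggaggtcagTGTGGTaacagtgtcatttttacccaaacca
Gzmd, chr14:56132675-56132782: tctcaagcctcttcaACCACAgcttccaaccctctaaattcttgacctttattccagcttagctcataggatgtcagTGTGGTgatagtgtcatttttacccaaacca
Gzme, chr14:56120708-56120815: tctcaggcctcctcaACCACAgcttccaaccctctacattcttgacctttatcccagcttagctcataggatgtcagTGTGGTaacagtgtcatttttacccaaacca
Gzmg, chr14:56159677-56159784: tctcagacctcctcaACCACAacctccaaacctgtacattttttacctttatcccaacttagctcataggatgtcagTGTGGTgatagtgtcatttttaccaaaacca
Gzmf, chr14:56211510-56211617: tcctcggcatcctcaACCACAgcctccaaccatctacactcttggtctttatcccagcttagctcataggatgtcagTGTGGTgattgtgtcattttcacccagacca
Gzmb, chr14:56262338-56262442: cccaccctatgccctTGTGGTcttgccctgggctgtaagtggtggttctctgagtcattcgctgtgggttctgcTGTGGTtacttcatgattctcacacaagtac
Gzmc, Gzmd, Gzme, Gzmg and Gzmf each have ACCACA followed by TGTGGT, with first bases from -174 and -108 in Gzmc to -195 and -133 in Gzmf, counted from the start site. Gzmb has TGTGGT at -93 and -34. The promoter of Gzmn holds no match. Of all 32851 promoters 16.8% hold the core and 1.81% hold it at least 2 times. Gzmf had 0 counts in every library although it carries both matches, and Gzmn had 6 counts in 1 OE Runx1 library and 0 in the others. Counted per gene, which cannot be set beside the shares per promoter, 14.7% of the 11558 tested genes matched by symbol had the core. The share was 16.8% of genes that rose at least 4-fold, 12.5% of those that fell at least 4-fold and 15.1% of those that did not pass.

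Other genes were also silent in OEV. In all, 120 genes that rose had 0 counts in the 3 controls. A gene at 0 in the controls can only pass as higher, and the reverse count, of genes silent in OE Runx1, is not given. Some of the 120 were near the floor, such as Zfp750, with 6 counts summed over OE Runx1. A mean of 5 CPM was reached by 6 of them, among them Gzmc, Gzmb, Gzmd, Col6a5 and Gdf6. Col6a5, a collagen VI chain, was at 10.7, 11.49 and 12.6 CPM, at least 387-fold higher. Gdf6, a BMP-like signal of joints, was at 6.06, 5.77 and 5.45 CPM, at least 192-fold higher. Several genes with only 2 counts in 1 control came up to similar levels. Wnt7b, a Wnt ligand, was at 0, 0.0671 and 0 CPM in OEV and 17.8, 20.0 and 18.3 CPM in OE Runx1. Oprl1, the nociceptin receptor, was at 0, 0.0671 and 0 CPM in OEV and 20.6, 22.9 and 21.1 CPM in OE Runx1. Cck, the gut and brain peptide cholecystokinin, was at 0, 0 and 0.05002 CPM in OEV and 45.1, 45.6 and 26.2 CPM in OE Runx1. Each was present in every OE Runx1 library. Sorcs2, a sorting receptor of neurons, was at 0.329, 0.201 and 0.200 CPM in OEV and 50.2, 52.2 and 55.0 CPM in OE Runx1 (log2 fold change 7.75, SE 0.18, edgeR adjusted p = 1.1e-09).

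**Figure D4:**
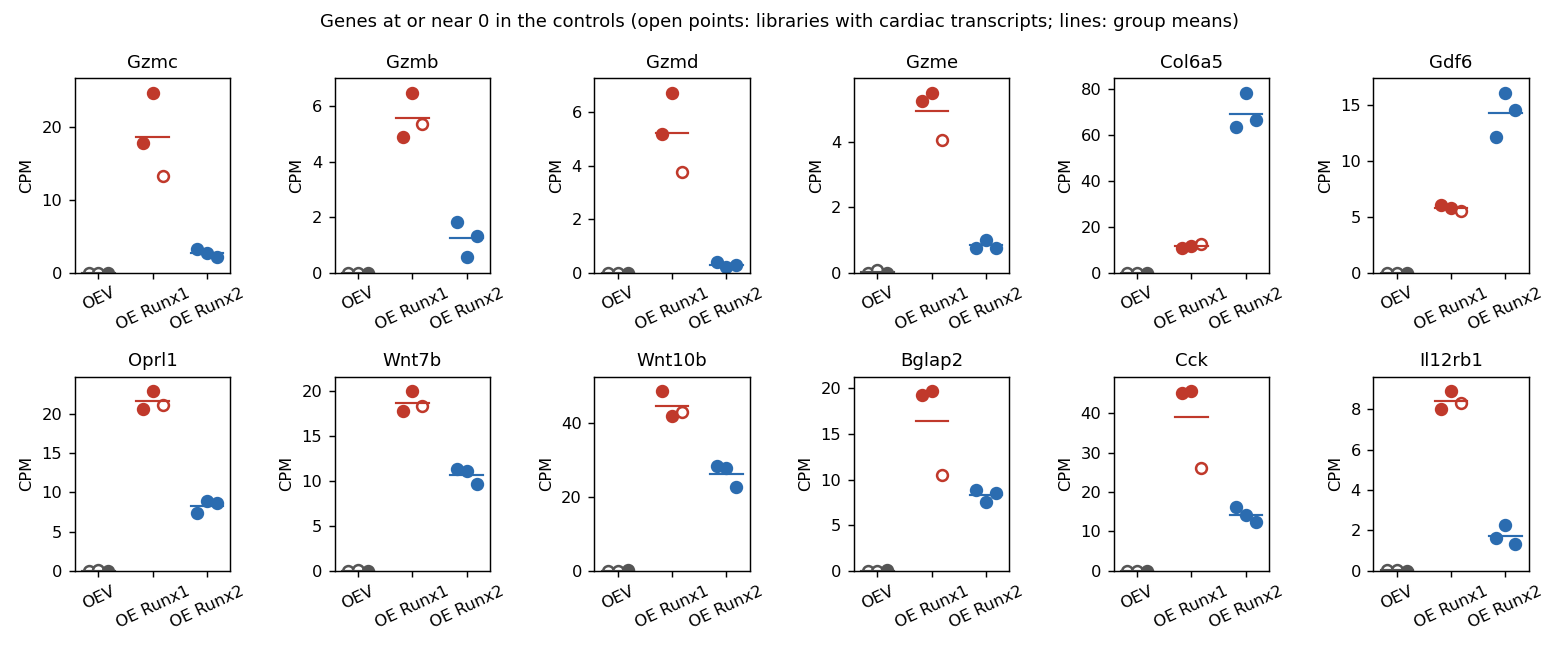
Level in CPM of 12 genes at or near 0 in the controls, in each library (points) of OEV, OE Runx1 and OE Runx2, with group means as lines and open points for libraries that carry cardiac transcripts. Granzymes are higher in OE Runx1 than in OE Runx2, whereas Col6a5 and Gdf6 are higher in OE Runx2.

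Extracellular matrix rose broadly. Of 37 tested collagen chains 20 rose and 6 fell (median log2 1.15). Col6a2, a chain of the collagen VI that surrounds fat cells, was at 499, 476 and 776 CPM in OEV and 3850.5, 3770.2 and 3374 CPM in OE Runx1 (log2 fold change 2.65, SE 0.17, edgeR adjusted p = 4.2e-07). Col6a1 was at 1505, 1640.0 and 1978 CPM in OEV and 5161, 5070.4 and 5020.0 CPM in OE Runx1 (log2 1.57, SE 0.11). It gained the most CPM of the genes that passed, with predicted and unnamed genes left out. Col8a1, a short-chain collagen of vessel walls, was at 15.7, 11.6 and 23.2 CPM in OEV and 139.8, 138 and 147 CPM in OE Runx1 (log2 fold change 3.07, SE 0.21, edgeR adjusted p = 4.8e-07). Col18a1, of basement membranes, rose by log2 2.52 (SE 0.13), and Col11a1, of cartilage fibrils, fell by 2.14 (SE 0.29). Small leucine-rich proteoglycans, which space collagen fibrils, had 7 of 13 members higher and 0 lower, the latter 2 without OE Runx1 replicate 3. Fibromodulin (Fmod) was at 0.0659, 0.201 and 0.1501 CPM in OEV and 21.3, 20.7 and 20.6 CPM in OE Runx1 (log2 fold change 7.19, SE 0.30, edgeR adjusted p = 2.0e-08), and Podnl1 at 1.58, 0.638 and 1.83 CPM in OEV and 66.1, 64.9 and 44.6 CPM in OE Runx1 (log2 5.41, SE 0.29).

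Matricellular proteins, which signal from within the matrix, also rose. Of 30 tested members 18 rose and 3 fell, the latter 5 without OEV replicate 2 and 6 without all 3 libraries with cardiac transcripts. Ccn5, which restrains growth of smooth muscle cells, was at 0.395, 0.268 and 0.400 CPM in OEV and 147, 136 and 107 CPM in OE Runx1 (log2 fold change 8.49, SE 0.22, edgeR adjusted p = 1.5e-09). Osteopontin (Spp1) was at 4.55, 3.22 and 8.80 CPM in OEV and 226, 182 and 162 CPM in OE Runx1 (log2 fold change 5.08, SE 0.32, edgeR adjusted p = 9.3e-07). Thrombospondin 3 (Thbs3) was at 2.50, 2.38 and 3.202 CPM in OEV and 24.8, 22.1 and 22.2 CPM in OE Runx1 (log2 fold change 3.08, SE 0.15, edgeR adjusted p = 4.6e-08). In each of the 3 every OE Runx1 library was above every control. Fbln1 and Smoc2 rose by log2 2.96 (SE 0.16) and 2.47 (SE 0.16), while Sparcl1 fell by 1.49 (SE 0.24).

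Enzymes that cut and bind the matrix rose on both sides of the balance. Of 34 proteases and inhibitors 24 rose and 5 fell (median log2 1.24). Mmp14, the membrane-bound collagenase, was at 76.6, 68.0 and 95.2 CPM in OEV and 686, 644 and 475 CPM in OE Runx1 (log2 fold change 2.91, SE 0.16, edgeR adjusted p = 1.2e-07). Its inhibitor and partner Timp2 was at 33.2, 23.7 and 51.6 CPM in OEV and 416, 384 and 353 CPM in OE Runx1 (log2 fold change 3.41, SE 0.23, edgeR adjusted p = 6.5e-07). Timp3 rose by log2 2.84 (SE 0.10). Plasminogen activation rose with Plat, at 2.77, 2.48 and 4.30 CPM in OEV and 35.5, 32.2 and 29.2 CPM in OE Runx1 (log2 3.33, SE 0.19), and the urokinase receptor Plaur (log2 4.44, SE 0.33). Of 18 genes of collagen crosslinking and processing 12 rose and 3 fell, the former 7 without OEV replicate 1. Loxl3, a lysyl oxidase, was at 6.89, 4.77 and 11.3 CPM in OEV and 151, 128 and 114 CPM in OE Runx1 (log2 fold change 4.08, SE 0.27, edgeR adjusted p = 1.0e-06), and those that fell were Loxl2, Plod1 and Plod2 (log2 -1.61, -1.56 and -1.33). Integrins and laminins split, with 10 of 29 higher and 10 lower. The basement membrane chains Lama4 and Lama5 fell by 1.82 (SE 0.12) and 2.14 (SE 0.13) on the log2 scale, and Itga5, the fibronectin receptor, rose by log2 1.37 (SE 0.16).

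Contractile and stromal markers were also higher in sum in OE Runx1. Smooth muscle and myofibroblast markers summed to 123 to 133 CPM in OEV and 1082 to 1462 CPM in OE Runx1, with at least 7 of 8 present in every library. Acta2, smooth muscle actin, was at 18.02, 13.0 and 38.4 CPM in OEV and 1086, 1089.7 and 765 CPM in OE Runx1 (log2 fold change 5.40, SE 0.41, edgeR adjusted p = 8.0e-06). Tagln rose from 8.47, 8.09 and 15.6 to 257, 265 and 173 CPM (log2 4.42, SE 0.29), but Myh11, the myosin of mature smooth muscle, fell from 12.3, 10.9 and 8.80 to 3.10, 3.49 and 4.97 CPM (log2 -1.47, SE 0.24). Preadipocyte and fibroblast markers summed to 468.5 to 1085 CPM in OEV and 2010 to 2324 CPM in OE Runx1, a sum that follows its most abundant members. Of 7 tested members 3 rose and 0 fell, so 42.9% passed, beside 54.0% of all tested genes. Pdgfrb, a pericyte and progenitor receptor, was at 44.2, 45.7 and 63.9 CPM in OEV and 292, 266 and 278 CPM in OE Runx1 (log2 fold change 2.44, SE 0.13, edgeR adjusted p = 1.2e-07), and Cd9 rose by log2 2.62 (SE 0.16). In bulk RNA more cells of a type and more RNA per cell cannot be told apart, and the part of these cells in the matrix result was not tested.

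Osteoblast and cartilage genes, the classical program of RUNX2, also rose: 19 of 28 tested members were higher and 3 lower (median log2 1.61). Without the 3 libraries with cardiac transcripts the counts were 16 higher and 3 lower. Sp7, the osteoblast factor downstream of RUNX2, was at 0.264, 0.0671 and 0.400 CPM in OEV and 13.8, 14.3 and 11.7 CPM in OE Runx1 (log2 fold change 5.69, SE 0.39, edgeR adjusted p = 5.0e-07). Mgp, an inhibitor of calcification, was at 3.99, 3.56 and 4.45 CPM in OEV and 58.2, 59.1 and 42.0 CPM in OE Runx1 (log2 fold change 3.73, SE 0.17, edgeR adjusted p = 3.0e-08). Both were near 0 or low in every control. Bglap2, an osteocalcin gene, was at 0, 0 and 0.05002 CPM in OEV and 19.2, 19.7 and 10.51 CPM in OE Runx1. Alpl, which releases phosphate for mineral, rose from 74.7, 87.5 and 87.6 to 265, 244 and 209.5 CPM (log2 1.52, SE 0.11), and Sox9, the cartilage factor, by log2 1.64 (SE 0.15). Phospho1, another phosphate-releasing enzyme of mineralisation, fell from 40.3, 48.5 and 35.1 to 10.2, 12.2 and 10.03 CPM (log2 -1.93, SE 0.15).

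Wnt pathway members that rose included ligands, targets and feedback inhibitors. Of 45 tested members 25 rose and 8 fell (median log2 0.71). Wnt10b, a ligand that keeps preadipocytes from becoming fat, was at 0.0659, 0 and 0.225 CPM in OEV and 48.7, 42.1 and 43.1 CPM in OE Runx1, with all 3 OE Runx1 libraries above 40 CPM. Lef1, a nuclear effector and target, was at 2.97, 3.02 and 2.63 CPM in OEV and 17.8, 21.2 and 18.6 CPM in OE Runx1 (log2 fold change 2.75, SE 0.13, edgeR adjusted p = 4.6e-08). The feedback inhibitors Axin2 and Notum rose by log2 1.81 (SE 0.31) and 1.99 (SE 0.19). Among receptors Ryk rose by log2 1.47 (SE 0.10) and Fzd2 by 1.71 (SE 0.24), and Fzd4 and Lrp5 fell by 1.47 (SE 0.18) and 0.78 (SE 0.10).

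Of 47 tested members of the TGF-beta, activin and BMP pathway 22 rose and 7 fell. Inhba, the activin A subunit, was at 0.923, 0.805 and 1.05 CPM in OEV and 20.9, 20.8 and 26.3 CPM in OE Runx1 (log2 fold change 4.60, SE 0.18, edgeR adjusted p = 1.9e-08), and its antagonist follistatin (Fst) at 2.17, 1.34 and 3.75 CPM in OEV and 29.0, 27.8 and 24.3 CPM in OE Runx1 (log2 fold change 3.45, SE 0.27, edgeR adjusted p = 1.2e-06). Tgfb3 rose by log2 2.09 (SE 0.15) and Ltbp1, which holds the latent ligand in the matrix, by 3.36 (SE 0.21). The receptor Tgfbr2 fell from 180.1, 189.9 and 154 to 53.2, 51.0 and 61.7 CPM (log2 fold change -1.66, SE 0.11, edgeR adjusted p = 5.7e-07). The inhibitory Smad6 and Smad7 and the BMP targets Id1 and Id3 rose, by log2 0.87, 0.89, 0.87 and 1.68. Of 24 Notch and Hedgehog genes 12 rose and 4 fell, the latter 2 without OE Runx1 replicate 1 or 2. The Hedgehog coreceptors Boc and Gas1 rose by log2 3.51 (SE 0.18) and 2.18 (SE 0.11), and the third, Cdon, fell by 1.10 (SE 0.13). Growth factors and receptors had 18 of 36 higher and 5 lower, the latter 8 without OE Runx1 replicate 3. Among those higher was the angiopoietin Angpt1, at 13.2, 9.46 and 15.3 CPM in OEV and 121, 109 and 145 CPM in OE Runx1 (log2 3.30, SE 0.20).

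Axon guidance genes, whose ligands and receptors also work outside the nervous system, changed in both directions. Of 46 tested members 19 rose and 11 fell. Sema3g, a semaphorin of endothelium and fat, was at 434, 467 and 424 CPM in OEV and 16.9, 17.0 and 21.8 CPM in OE Runx1 (log2 fold change -4.57, SE 0.21, edgeR adjusted p = 3.8e-08). Slit3, a secreted ligand, was at 5.34, 4.56 and 4.75 CPM in OEV and 46.9, 44.2 and 47.4 CPM in OE Runx1 (log2 fold change 3.24, SE 0.13, edgeR adjusted p = 1.9e-08), whereas Slit1 fell from 11.8, 9.67 and 8.03 to 0.184, 0.456 and 0.267 CPM (log2 -5.01, SE 0.50). Ephrin-B2 (Efnb2) and the receptor Epha2 rose by log2 3.13 (SE 0.14) and 3.66 (SE 0.18).

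**Figure D5:**
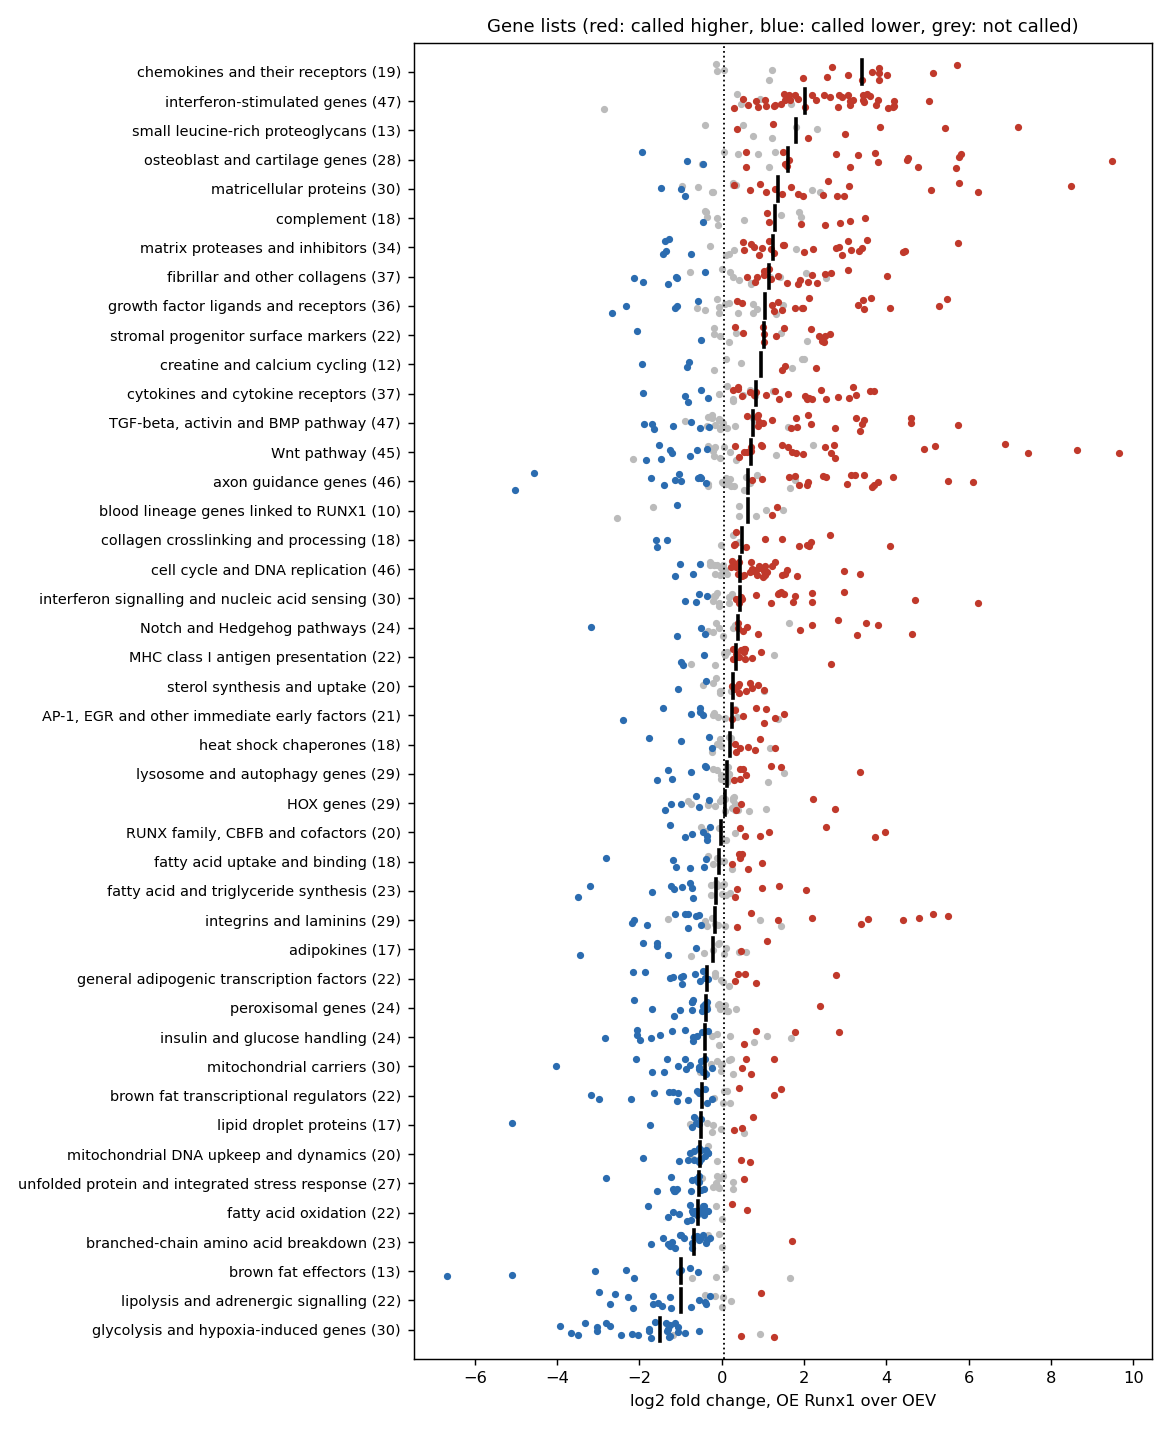
Log2 fold change of OE Runx1 over OEV for each tested member (points) of 44 gene lists, with the number of tested members in parentheses, the list median as a black bar and the median of all tested genes as a dotted line; genes with 0 counts in the controls and the granzyme list are not drawn. Red points passed higher, blue points passed lower and grey points did not pass. Chemokines with their receptors and interferon-stimulated genes have the highest medians, and glycolysis and lipolysis the lowest.

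Cell division genes rose a little and together: 29 of 46 were higher and 4 lower (median log2 0.45). The mitotic kinase Plk1 was at 46.0, 50.0 and 55.9 CPM in OEV and 157, 163 and 134 CPM in OE Runx1 (log2 fold change 1.58, SE 0.11, edgeR adjusted p = 4.6e-07), and Cdk1 rose by log2 1.22 (SE 0.10). Cyclin D1 (Ccnd1), which opens the cycle, was at 5.24, 8.49 and 6.53 CPM in OEV and 74.8, 67.3 and 67.0 CPM in OE Runx1 (log2 fold change 3.37, SE 0.16, edgeR adjusted p = 5.0e-08). Inhibitors split, with Cdkn1c higher (log2 2.96, SE 0.18) and Cdkn1a lower (log2 -1.01, SE 0.13). The unfolded protein and integrated stress responses fell in 16 of 27 members and rose in 1, the latter 2 or 3 without OEV replicate 2 or OE Runx1 replicate 3. Hspa5, the main chaperone of the endoplasmic reticulum, was at 1726, 1654 and 1711 CPM in OEV and 781, 725 and 728 CPM in OE Runx1 (log2 fold change -1.19, SE 0.08, edgeR adjusted p = 3.8e-07), and Ppp1r15a, which restarts translation, fell by 1.58 (SE 0.11) on the log2 scale. Blood lineage genes linked to RUNX1 were mostly too scarce to test: 10 of 27 could be tested. Of these 2 rose, or 1 in most fits with a library left out, and 1 fell, or 3 without OE Runx1 replicate 3.

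Among the genes that fell furthest by the naming rule were several with no place in the lists. Ano1, a calcium-activated chloride channel, was at 28.3, 35.1 and 25.8 CPM in OEV and 0.688, 0.152 and 0.642 CPM in OE Runx1 (log2 fold change -5.90, SE 0.37, edgeR adjusted p = 2.9e-07). Ndufa4l2, a mitochondrial protein that HIF induces, was at 23.03, 31.7 and 19.7 CPM in OEV and 0.734, 0.608 and 0.802 CPM in OE Runx1 (log2 fold change -5.11, SE 0.31, edgeR adjusted p = 2.1e-07). Trim66 fell from 85.6, 88.9 and 89.1 to 4.31, 3.04 and 4.36 CPM (log2 -4.49, SE 0.18), and Stc1, stanniocalcin, from 10.54, 9.40 and 16.7 to 0.688, 0.506 and 0.695 CPM (log2 -4.27, SE 0.30). Depp1, a gene that FOXO factors induce, was at 30.2, 33.8 and 20.2 CPM in OEV and 0, 0 and 0.481 CPM in OE Runx1, so 2 OE Runx1 libraries were at 0 and the one with cardiac transcripts was not. Haptoglobin (Hp), an acute-phase protein that fat cells secrete, rose from 198, 262 and 187 to 1369, 1421 and 1089 CPM (log2 2.58, SE 0.16).

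OE Runx2 libraries of the same table were compared directly with OE Runx1, which leaves out the shared controls. Of 14661 genes 39.9% differed, 18.9% higher and 21.0% lower in OE Runx2. In OE Runx2 Runx2 was at 281, 332 and 313 CPM and Runx1 at 28.9, 29.4 and 32.6 CPM, below all OE Runx1 libraries (log2 difference -1.28, SE 0.15, edgeR adjusted p = 8.9e-05). Interferon-stimulated genes were higher with Runx2 in 44 of 47 members and lower in 2 (median log2 difference 2.49 beside -0.02 over all genes). Ifit1 was at 296, 333 and 337 CPM in OE Runx2 (log2 difference 1.69, SE 0.14, edgeR adjusted p = 5.0e-06). Immediate early genes, which respond within minutes to growth signals and stress, were higher with Runx2 in 18 of 21 members and lower in 0 (median 2.45). Fos, a subunit of AP-1, was at 10.1, 10.3 and 11.2 CPM in OEV and 8.12, 8.15 and 6.58 CPM in OE Runx1 and 365, 343 and 363 CPM in OE Runx2 (log2 difference 5.55, SE 0.11, edgeR adjusted p = 2.8e-10). Egr2 was at 18.4, 16.4 and 14.5 CPM with Runx1 and 342, 298 and 311 CPM with Runx2 (log2 difference 4.27, SE 0.13, edgeR adjusted p = 3.8e-09). Against OEV, OE Runx1 had 8 of these genes higher and 6 lower, the former 5 without OEV replicate 1 or without OE Runx1 replicate 1. Maff, a small MAF factor, fell by 2.40 (SE 0.14) and Dusp1, a MAP kinase phosphatase, fell by 1.43 (SE 0.09) on the log2 scale.

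Granzymes were higher with Runx1, and osteoblast and cartilage genes differed in both directions. Gzmc had 120, 95 and 114 counts in OE Runx2, well under its counts in OE Runx1 (log2 difference -2.80, SE 0.27, edgeR adjusted p = 6.6e-05), and Gzmd had 14, 8 and 16 (log2 difference -4.11, SE 0.41, edgeR adjusted p = 7.2e-05). Of 28 osteoblast and cartilage genes 5 were higher and 8 lower with Runx2, beside 18.9% and 21.0% of all tested genes. The median log2 difference was -0.18 beside -0.02, so the list as a whole stayed near the values over all genes. Sp7 and Alpl were among the members that were lower. Sp7 was at 4.25, 3.43 and 3.14 CPM in OE Runx2 (log2 difference -1.88, SE 0.30, edgeR adjusted p = 6.1e-04) and Alpl at 113, 103 and 95.6 CPM (log2 difference -1.21, SE 0.11, edgeR adjusted p = 1.5e-05). The matricellular list had 21 of 30 members higher with Runx2 and 3 lower, and Mmp14 was at 1653, 1522 and 1499 CPM (log2 difference 1.37, SE 0.15, edgeR adjusted p = 5.1e-05). Fat and fuel genes were lower with Runx2 in most members of 3 lists, with 20 of 22 for fatty acid oxidation, 17 of 23 for fat synthesis and 19 of 30 for glycolysis. Adipocyte markers summed to 4537 to 5477 CPM in OE Runx2, below all OE Runx1 libraries. Elovl3 and Ces1d, a lipase of fat cells, were among the genes furthest below OE Runx1 (log2 differences -2.98 and -4.71), and Fosb, Nr4a1 and Grem1, a BMP antagonist, among those furthest above it (log2 differences 5.74, 5.38 and 5.08). Each direct difference given here kept its call, and moved by less than 1.5-fold, with each library left out in turn.

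The libraries labelled Knock out Runx1, from the same cell line and differentiation, have controls of their own labelled Knock out control. Runx1 was at 2.80, 8.01 and 4.91 CPM in the knockout controls and 4.76, 4.81 and 6.74 CPM in the Runx1 knockouts, so its counts were not lower under the knockout label (log2 fold change 0.05, SE 0.34, edgeR adjusted p = 1). How Runx1 was disrupted is not given in the sources used here, and directions from these libraries carry that limit. Of 13551 tested genes 59 passed, or 0.435%, of which 0.406% were higher and 0.0295% lower. That count was 26, 4 and 28 without control replicates 1, 2 and 3, and 17, 16 and 23 without the libraries labelled Knock out Runx1 replicates 1, 2 and 3. It was 220 by DESeq2 and 195 with only the groups compared in the fit. Ucp1 was at 9.63, 21.2 and 22.01 CPM in the knockout controls and 52.3, 45.2 and 54.4 CPM in the Runx1 knockouts and did not pass (log2 fold change 1.52, SE 0.30, edgeR adjusted p = 0.055), though it did by DESeq2 and with only those groups in the fit. Of the 55 genes higher under the knockout label, 34 were also higher and 9 lower with overexpression, and 12 did not pass there. Over all 14661 genes tested for overexpression, 28.2% were higher and 25.8% lower. No test was run on this overlap.

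Single genes are given side by side. Mmp2, a gelatinase, was at 4.09, 4.50 and 5.20 CPM in OEV and 21.1, 17.9 and 16.6 CPM in OE Runx1 (log2 2.01, SE 0.13), and its log2 fold change under the knockout label was 1.71. Oasl2, an interferon-stimulated gene, was at 1.65, 1.48 and 1.90 CPM in OEV and 16.8, 12.4 and 14.7 CPM in OE Runx1 (log2 3.11, SE 0.15), with 2.21 under the knockout label, and Timp2 had 0.99 there. Both did not pass under the knockout label without control replicate 2. Msln, a surface glycoprotein of mesothelium, was at 6.82, 9.26 and 8.40 CPM in OEV and 0.895, 0.608 and 0 CPM in OE Runx1 (log2 -4.00, SE 0.95, or -4.73 without OE Runx1 replicate 1), and had a log2 fold change of 1.60 under the knockout label. Mmp2, Oasl2 and Timp2 were thus higher under both labels, and Msln was lower in one and higher in the other.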

How the data were processed

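Polyadenylated RNA was sequenced from libraries made with the VAHTS Universal V6 kit. The authors trimmed, aligned and counted reads with fastp, STAR and featureCounts on mm39, per the submitters' processing notes; versions and strand settings are not given in the sources used here, so overlapping and antisense genes cannot be told apart. The deposited tables hold whole-number counts per gene for 26264 genes. Of the low counts (1 to 19), 75.1% to 76.8% per library were even, as when both reads of a pair are counted; halved counts were an alternative. edgeR 4.0.16 in R 4.3.3 (filterByExpr, TMM, quasi-likelihood) was fitted to the 9 overexpression libraries, and separately to the knockout table. DESeq2 1.42.0 was an alternative. In simulated counts the test found 86 of 100 genes changed 2-fold and 96 of 100 changed 4-fold, with 3 false calls among 185. Those changed genes stood among 13651, whereas 54.0% of the real genes passed, so these rates may not carry over to the real libraries. The members, gene lists, marker lists and naming rule were chosen with earlier results of these data known. Beyond the lists, named genes are the 15 highest and lowest fold changes with a group mean of at least 5 CPM, the 10 largest CPM gains and losses, and 8 per direction of the other contrasts. Promoters come from RefSeq on GRCm38.p6, not the build of the counts, matched by symbol for 11558 of 14661 tested genes. Values of some genes are not reported here.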

Additional observations from a re-analysis of the deposited data

How the results depend on the processing

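The number of genes that passed between OE Runx1 and OEV was 7912 and ran from 6710 to 8489 with 1 library left out. It was 7909 with DESeq2's size factors, 8356 by DESeq2, 7626 with no filter, 7156 with only the 2 groups in the fit, 8061 with the summed cardiac markers as a covariate and 7851 with halved counts. The replicate number as a block gave 7820. Same-numbered OEV and OE Runx1 libraries had deviations that correlated at 0.06, -0.18 and -0.26, which shows no pairing by number. It cannot exclude one, because other differences between libraries may mask it. OEV replicate 2 and OE Runx1 replicate 3, which both carry cardiac transcripts, correlated at 0.27. Of 173 named genes that passed, 170 kept their direction and call in all 14 alternatives. Myh6, high in 3 libraries only, turned from higher to lower with the replicate number as a block (-4.70) and with the covariate (-1.66), and ran from -14.37 without OE Runx1 replicate 3 to 3.40 without OEV replicate 2. Adrb3, which did not pass in any of them, was at -0.00086 with no filter, ran from -0.12 to 0.21 with 1 library left out, and was at 0.31 (edgeR adjusted p = 0.088) without the 3 libraries with cardiac transcripts. Genes lower in OE Runx2 than in OE Runx1 numbered 1989 to 3479 with 1 library left out.

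Under the knockout label the 59 genes became 220 by DESeq2 (178 higher, 42 lower), 32 with the replicate number as a block (30 and 2) and 195 with only the 2 groups in the fit (165 and 30). With 1 library left out they were 4 to 28, with 4 to 27 higher and 0 to 2 lower. The Runx1 fold change under that label ran from -0.23 to 0.49 with 1 library left out, and was negative without control replicate 1 and without Knock out Runx1 replicate 3 (-0.14). The causes were not tested. With 3 libraries a group, a change of under 2-fold in a gene of few counts may be missed.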
